A study of Mus musculus with 8 samples.

Results

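The Cyp2 genes of mouse liver were followed here through the response to GW4064, a synthetic agonist of the farnesoid X receptor (FXR), in livers with and without FXR. They were taken as the protein-coding rows of the authors' expression table whose symbol is Cyp2 followed by a letter, which gave 48 genes of 25124 rows and of 20870 protein-coding rows. The choice used symbols alone and no measured value. There were 15 Cyp2c, 8 Cyp2d, 7 Cyp2j, 5 Cyp2b and 4 Cyp2a genes, and 1 gene each of Cyp2ab, Cyp2e, Cyp2f, Cyp2g, Cyp2r, Cyp2s, Cyp2t, Cyp2u and Cyp2w. Chromosomes 7 and 19 carried 15 of the genes each, with every Cyp2c gene on chromosome 19, and 8 lay on chromosome 15 (Cyp2d), 7 on chromosome 4 (Cyp2j) and 1 each on chromosomes 3, 5 and 16.

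CYP2 proteins are haem-containing monooxygenases of the endoplasmic reticulum that take electrons from cytochrome P450 reductase and insert oxygen into drugs, steroids, fatty acids, bile acids and vitamin D. Many of their genes arose by tandem duplication and sit side by side in clusters. In liver, HNF4α sustains the transcription of many of them, and the xenobiotic receptors CAR (Nr1i3) and PXR (Nr1i2) raise Cyp2b10 and several Cyp2c genes when foreign compounds arrive, whereas FXR is the receptor for bile acids and acts most directly on genes of bile acid synthesis and transport.

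The 8 libraries came from livers of mice of the C57BL/6 strain that had fasted overnight and received GW4064 at 30 mg/kg or vehicle 1 h before the liver was taken. The animals are described as male in the figure legends of the study. Total RNA depleted of ribosomal RNA was sequenced (RNA-seq) from mice without an FXR deletion, with 2 vehicle and 2 GW4064 libraries, each pooling the RNA of 2 mice. Nascent RNA, labelled with BrU in isolated nuclei by a run-on reaction (GRO-seq), was sequenced in 1 library for each of 4 groups, WT vehicle, WT GW4064, FXR KO vehicle and FXR KO GW4064. The study describes replicates within each GRO-seq group, of which the table used here shows a single column, and whether a library holds the nuclei of a single mouse or of several is not given in the sources used here. The labels call these genotypes WT and FXR KO, and the methods describe mice with a floxed Fxr gene and mice in which Albumin-Cre, active in hepatocytes, deletes it in the liver, so FXR of other organs and other liver cells was kept. The vehicle is named DMSO in sample titles, vehicle in other labels and corn oil in the methods.

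Values are RPKM, reads per kilobase of the gene scaled to the depth of the library, counted over the whole gene with introns, so an RNA-seq value joins mature and unspliced RNA and a GRO-seq value follows polymerase density along the gene. Library totals rebuilt from the RPKM values were 13924340 to 14047320 reads in RNA-seq. In GRO-seq they were 14173780 and 10593400 reads for WT vehicle and GW4064 but 5141700 and 5069380 for FXR KO, so the counting error is larger in the FXR KO libraries. The Fxr gene itself, Nr1h4, stood at 15.1 and 4.23 RPKM in the WT vehicle and GW4064 GRO-seq libraries and at 16.7 and 20.6 RPKM in the FXR KO pair, a density over the whole gene that does not isolate a deleted part and so does not check the genotype. Abcb11, the FXR-driven bile salt export pump, went from 4.61 to 56.0 RPKM in WT and from 1.20 to 1.58 RPKM in FXR KO, and Nr0b2 (SHP) from 3.65 to 36.6 RPKM in WT and from 0.118 to 1.19 RPKM in FXR KO. The Nr0b2 ratio was 10.1 (2.46 to 89.5) in FXR KO, from 2 and 20 reads, against 10.0 (8.56 to 11.9) in WT. Osgin1, a further FXR-induced gene, went from 9.06 to 82.0 RPKM in WT and from 6.47 to 15.2 RPKM in FXR KO, ratios of 9.04 (8.5 to 9.63) and 2.35 (2.05 to 2.7), so 2 of the 3 controls over the filter were at least 1.5-fold higher in FXR KO too. In RNA-seq the FXR-induced control list rose in 3 of 3 tested genes. Of the hepatocyte markers fixed for the check, Alb, Apoa1 and Ttr were abundant and together held 218 to 253 RPKM in RNA-seq, against 11.5 to 12.5 RPKM for 4 Kupffer cell markers and 1.68 to 2.75 RPKM for 4 cholangiocyte markers, as the liver label says.

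The stretch just upstream of the start is shown for the genes on which the results turn. Cyp2b10, Cyp2c29 and the weakly transcribed Cyp2c55, for which CAR is a known activator, had the highest GW4064 ratios of the family in FXR KO nuclei. Cyp2c67, Cyp2c68 and Cyp2c70 had the lowest ratios in WT nuclei among the 26 genes over the GRO-seq filter. Each sequence is the 250 bases before the annotated start, 5′ to 3′ on the gene's strand, from RefSeq on GRCm38.p6, the assembly also called mm10, and 41 of 48 genes had such a window, all but Cyp2c23, Cyp2c54, Cyp2d12, Cyp2d22, Cyp2d34, Cyp2g1 and Cyp2u1. Capitals mark matches on either strand to AGGTCA or AGTTCA, the core repeat bound by nuclear receptors. They also mark, on either strand, CAAAGTCCA, a site form of HNF4α, and TATAAA, the letters of the TATA box. The Cyp2b10 window is chr7:25897408-25897657 on the plus strand, Cyp2c29 is chr19:39286835-39287084 on the plus strand and Cyp2c55 is chr19:39006769-39007018 on the plus strand. On the minus strand, Cyp2c67 is chr19:39649043-39649292, Cyp2c68 is chr19:39741102-39741351 and Cyp2c70 is chr19:40187287-40187536.
Cyp2b10: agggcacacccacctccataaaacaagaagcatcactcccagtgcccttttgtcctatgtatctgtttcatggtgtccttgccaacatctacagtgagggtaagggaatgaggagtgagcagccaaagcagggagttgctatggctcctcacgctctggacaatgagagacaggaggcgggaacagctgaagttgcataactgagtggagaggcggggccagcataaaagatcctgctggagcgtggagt
Cyp2c29: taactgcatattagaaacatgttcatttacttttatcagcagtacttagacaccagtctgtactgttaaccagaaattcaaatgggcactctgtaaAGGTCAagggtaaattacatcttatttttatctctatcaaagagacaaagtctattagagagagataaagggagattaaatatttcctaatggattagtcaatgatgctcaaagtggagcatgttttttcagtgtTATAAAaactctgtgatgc
Cyp2c55: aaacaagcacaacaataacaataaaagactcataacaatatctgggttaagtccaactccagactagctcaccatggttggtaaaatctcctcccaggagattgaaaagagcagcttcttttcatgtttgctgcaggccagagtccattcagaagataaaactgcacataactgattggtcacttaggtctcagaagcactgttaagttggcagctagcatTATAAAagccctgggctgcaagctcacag
Cyp2c67: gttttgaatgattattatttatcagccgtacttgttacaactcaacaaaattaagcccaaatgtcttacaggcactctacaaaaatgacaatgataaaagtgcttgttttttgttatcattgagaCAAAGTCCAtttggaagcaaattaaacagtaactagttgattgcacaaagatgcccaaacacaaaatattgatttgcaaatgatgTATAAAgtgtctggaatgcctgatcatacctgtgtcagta
Cyp2c68: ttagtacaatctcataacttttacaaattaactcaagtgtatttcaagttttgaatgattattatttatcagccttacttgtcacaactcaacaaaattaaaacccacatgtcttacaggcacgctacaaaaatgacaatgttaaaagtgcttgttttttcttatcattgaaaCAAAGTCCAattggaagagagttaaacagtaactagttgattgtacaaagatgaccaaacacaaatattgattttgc
Cyp2c70: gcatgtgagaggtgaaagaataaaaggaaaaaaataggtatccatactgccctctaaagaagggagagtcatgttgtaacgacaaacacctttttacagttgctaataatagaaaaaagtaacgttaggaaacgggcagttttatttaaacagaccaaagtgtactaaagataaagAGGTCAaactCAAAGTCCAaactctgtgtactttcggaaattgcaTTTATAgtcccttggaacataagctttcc

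The Cyp2c29 window held AGGTCA and TATAAA, the Cyp2c55 window TATAAA alone, and the Cyp2b10 window none of the searched letters. Cyp2c67, Cyp2c68 and Cyp2c70 each held CAAAGTCCA, which was found in 6 of the 41 Cyp2 windows (14.6%) and in 0.384% of 32817 mouse promoter windows of the same length. The other Cyp2 windows with it were those of Cyp2c40, Cyp2c65 and Cyp2c69, all 6 genes lying in the same cluster of duplicated genes, so these matches are not independent of each other. Cyp2e1 and Cyp2r1 were also at least 1.5-fold lower in WT nuclei after GW4064, and their windows did not hold CAAAGTCCA. TATAAA stood in 18 Cyp2 windows (43.9%) against 12.4% of all windows, AGGTCA in 9 (22.0%) against 14.0%, and AGTTCA in 5 (12.2%) against 11.9%. Most windows with TATAAA were those of Cyp2a, Cyp2c and Cyp2d genes, which are duplicated too, so these matches are not independent either. TATAAA was counted anywhere in a window, as at 162 bases before the start of Cyp2c65, so a match need not be a TATA box. The exact inverted repeat of AGGTCA with a spacer of 1 base, a form of the site bound by FXR, was in 0 of the 41 windows. It was in 0.00609% of all windows. Exact direct repeats of AGGTCA and of AGTTCA with a spacer of 4 bases, forms of the CAR site, were in 0 of the 41 windows. All windows held them in 0.0152% and 0.00914%. The exact direct repeat of AGGTCA with a spacer of 1 base was in 0 of the 41 and 0.0335% of all. Only these exact letters were searched. They were so rare in all windows that 0 of 41 does not show an absence of FXR or CAR sites. AGGTCA is part of the longer repeats that contain it, a match describes letters only, and sites further upstream, such as the phenobarbital-responsive module known for Cyp2b10, lie outside these windows.

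In vehicle livers the family spanned a wide range of RNA-seq levels. Testing required an average of 0.5 RPKM or more across the RNA-seq libraries, so 25 genes were tested and 23 were not, and 11 genes had under 20 reads in each of the 8 libraries. The highest level per kilobase was that of Cyp2d9, a steroid 16-hydroxylase more abundant in males, at 46.8 ± 0.159 RPKM (SD, n = 2), followed by Cyp2e1, which oxidises ethanol and acetaminophen in pericentral hepatocytes, at 45.5 ± 0.238. Cyp2d26 at 36.8 ± 2.11 and Cyp2d10 at 36.7 ± 1.05 overlapped between libraries and could not be ranked, and Cyp2c50 followed at 19.3 and 20.7 RPKM in the 2 vehicle libraries. Cyp2a12, a bile acid hydroxylase, at 14.9 ± 0.368 and Cyp2f2, which activates naphthalene, at 14.5 ± 0.239 RPKM also overlapped. Below them came Cyp2d22 at 13.1 ± 0.38, the arachidonic acid epoxygenase Cyp2j5 at 10.3 ± 0.211, the coumarin hydroxylase Cyp2a5 at 9.4 ± 0.653, Cyp2c29 at 7.61 ± 1.4 and Cyp2d40 at 6.66 ± 0.31, where Cyp2c29 and Cyp2d40 overlapped. The vitamin D 25-hydroxylase Cyp2r1 stood at 1.28 ± 0.186 and Cyp2b10 at 1.05 ± 0.0587 RPKM, and the lowest tested gene was Cyp2a22 at 0.613 ± 0.107 RPKM. The row used for Cyp2c50 covers the 2654 bases at the start of the gene, so its level per kilobase holds fewer introns than those of its neighbours.

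**Figure D1:**
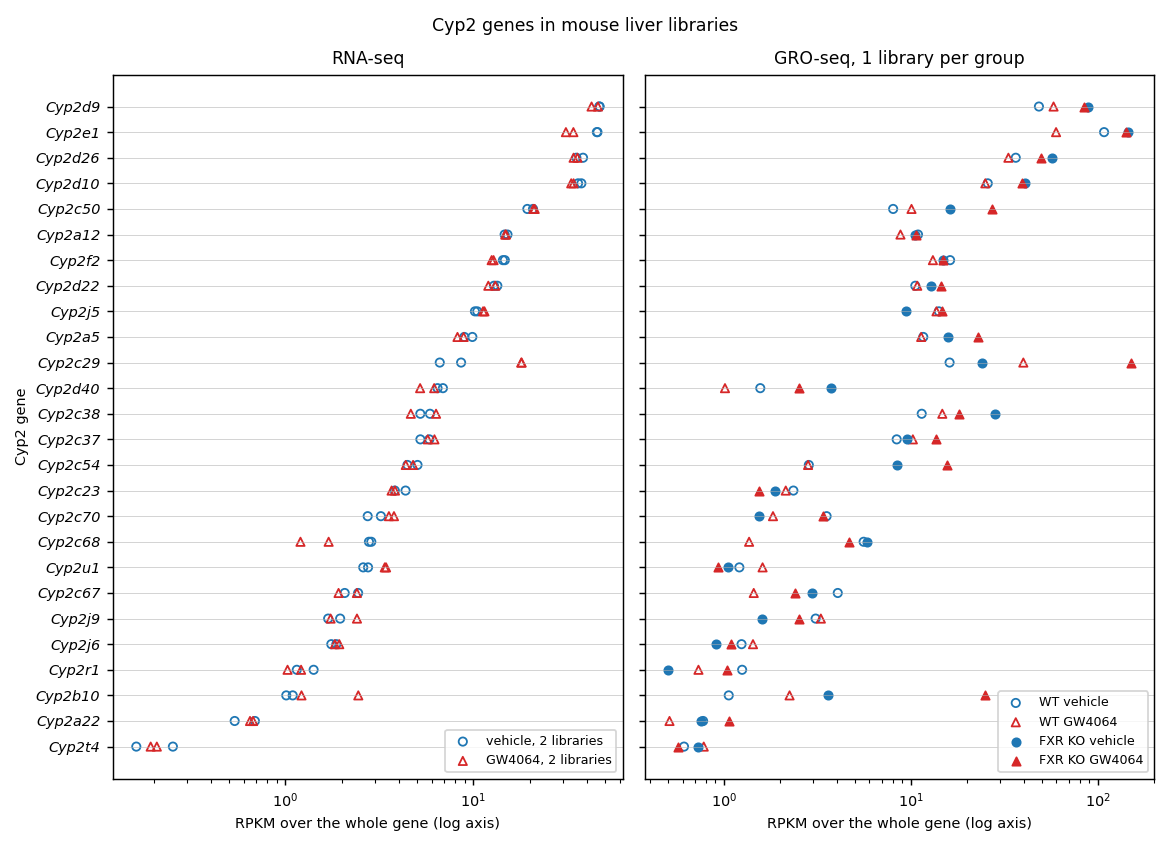
RPKM over the whole gene on a log axis for 26 Cyp2 genes, ordered by vehicle RNA-seq level, with each point 1 library; circles are vehicle, triangles GW4064, and filled symbols FXR KO. Cyp2d9 and Cyp2e1 head the RNA-seq order, and the FXR KO GW4064 library stands far right of the other GRO-seq libraries for Cyp2c29 (151 RPKM) and Cyp2b10 (24.8 RPKM).

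Reads could be shared between near copies. Of the 80-base stretches of annotated transcripts, 54.4% of those of Cyp2c40 recurred in another Cyp2 gene, as did 41.2% for Cyp2c69, 33.2% for Cyp2c67, 26.3% for Cyp2c68, 24.0% for Cyp2d10 and 23.0% for Cyp2a5, so the values of these genes are uncertain where reads could be split. The share was 0.98% for Cyp2b10 and 0.235% for Cyp2c29, and 0 for Cyp2e1, Cyp2c55, Cyp2c70 and Cyp2j5. These shares cover exons, and introns were not compared.

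GW4064 given for 1 h was followed by a rise of a single Cyp2 gene in RNA-seq, Cyp2c29, whose product metabolises drugs and epoxidises arachidonic acid. Its RNA-seq level was 6.62 and 8.59 RPKM in vehicle libraries 1 and 2 and 18.0 RPKM in both GW4064 libraries. The groups did not overlap, and the log2 change was 1.24 with a standard error of 0.14, a 2.37-fold change of RPKM + 0.1 with a 95% interval of 1.79 to 3.13 (limma, Benjamini-Hochberg adjusted p = 0.041). It was 1 of 25 tested Cyp2 genes, beside a background of 2.13% of 11408 tested genes called higher. By the same limma test 0 Cyp2 genes were lower, with a background of 1.15%, while at an unadjusted p under 0.05 there were 3 lower and 3 higher (background 10.6% in each direction) and limma-voom on rebuilt reads called 2 lower (4.16%) and 2 higher (4.55%). The call for Cyp2c29 was close to the threshold and was lost on leaving out any library, with a limma adjusted p of 0.09 without vehicle library 1, 0.072 without vehicle library 2 and 0.19 without either GW4064 library, while its log2 change stayed at 1.06 to 1.43. In those fits the treatment left with a lone library is assumed to vary like the other.

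The family as a whole moved little in RNA-seq. The median log2 change of the 25 genes was -0.05 against 0.00 over all tested genes, with 10 genes above 0 and 15 below. Both GW4064 values lay above both vehicle values for 6 genes (24.0%, background 26.0%) and below them for 7 genes (28.0%, background 28.1%). The reads of all Cyp2 genes together were 0.369% and 0.374% of the vehicle libraries and 0.385% and 0.405% of the GW4064 libraries. Without Cyp2c29 these shares were 0.34% and 0.336% for vehicle and 0.306% and 0.327% for GW4064, so the GW4064 libraries stood higher with Cyp2c29 counted and lower without it. The 2 libraries of a treatment differed by a median of 0.10 (vehicle) and 0.11 (GW4064) on the log2 scale over the tested Cyp2 genes, most in Cyp2c29 for vehicle (0.37) and in Cyp2b10 for GW4064 (0.95).

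**Figure D2:**
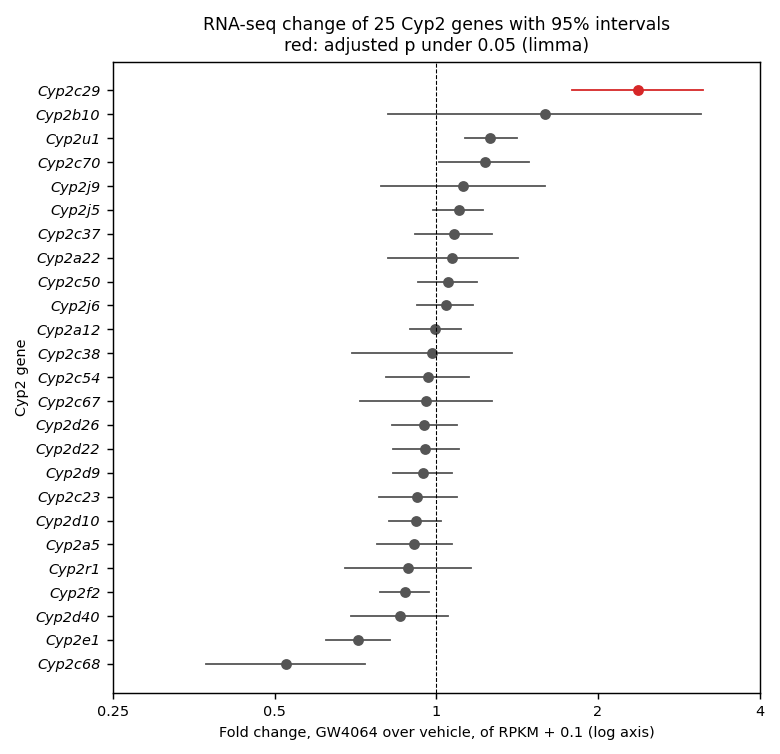
RNA-seq fold change of RPKM + 0.1, GW4064 over vehicle, on a log axis for the 25 tested Cyp2 genes, with points for the limma estimate and lines for its 95% interval (2 libraries per treatment). Cyp2c29, in red, is the gene past an adjusted p of 0.05, and Cyp2c68 and Cyp2e1 have the lowest estimates.

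Cyp2e1 came next by evidence and was lower. Its RNA-seq level was 45.6 and 45.3 RPKM in the vehicle libraries and 31.0 and 34.0 RPKM in the GW4064 libraries. The groups did not overlap, but the log2 change of -0.48 (SE 0.07) missed the threshold (limma adjusted p = 0.061), as did that of Cyp2c68, which was 2.86 and 2.78 RPKM with vehicle and 1.20 and 1.70 RPKM with GW4064, a log2 change of -0.93 (SE 0.17, limma adjusted p = 0.095). Limma-voom on rebuilt reads called both lower, Cyp2e1 with an adjusted p of 0.014 and Cyp2c68 with 0.017. Of the 4 pericentral markers, Slc1a2 fell by 0.59 on the log2 scale (limma adjusted p = 0.038) and the other 3 did not pass, and their summed level was 54.0 and 52.0 RPKM with vehicle and 51.9 and 49.3 RPKM with GW4064. The 4 periportal markers summed to 145 and 143 RPKM with vehicle and to 177 and 190 RPKM with GW4064, with Hal past the test. The part of these markers in the Cyp2e1 values was not tested.

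Cyp2u1, a fatty acid hydroxylase, was 2.59 and 2.75 RPKM with vehicle and 3.43 and 3.38 RPKM with GW4064 in RNA-seq, without overlap, a log2 change of 0.34 (SE 0.06) that missed the threshold (limma adjusted p = 0.078) and passed in limma-voom (adjusted p = 0.034). Cyp2b10, the classical target of CAR, was 1.09 and 1.01 RPKM with vehicle and 2.44 and 1.22 RPKM with GW4064. Both GW4064 values were above both vehicle values but far apart, and the log2 change of 0.67 had a standard error of 0.35 (limma adjusted p = 0.37, 1.59-fold with an interval of 0.811 to 3.11). Cyp2c70, which forms muricholic acids in mice, was 3.22 and 2.74 RPKM with vehicle and 3.55 and 3.78 RPKM with GW4064, and Cyp2f2 was 14.7 and 14.3 RPKM with vehicle and 12.5 and 12.8 RPKM with GW4064. Neither passed the test, with log2 changes of 0.29 (SE 0.10, limma adjusted p = 0.22) and -0.20 (SE 0.05, limma adjusted p = 0.17).

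Other abundant genes of the family had narrow RNA-seq intervals around no change. Cyp2d9 was 46.6 and 46.9 RPKM with vehicle and 42.5 and 45.9 RPKM with GW4064, Cyp2d10 36.0 and 37.5 RPKM against 33.1 and 34.1 RPKM, and Cyp2d26 35.3 and 38.2 RPKM against 34.1 and 35.7 RPKM. Both GW4064 values lay below vehicle for Cyp2d9 and Cyp2d10 and overlapped for Cyp2d26, and the 95% intervals of their fold changes were 0.83 to 1.07, 0.816 to 1.02 and 0.827 to 1.09. Cyp2c50 was 19.3 and 20.7 RPKM with vehicle and 21.2 and 20.8 RPKM with GW4064, both above vehicle, with an interval of 0.925 to 1.19. Cyp2a12 was 15.2 and 14.6 RPKM with vehicle and 14.9 and 14.8 RPKM with GW4064, Cyp2a5 8.94 and 9.86 RPKM against 8.86 and 8.22 RPKM, and Cyp2j5 10.5 and 10.2 RPKM against 11.4 and 11.2 RPKM. The Cyp2a12 groups overlapped, those of Cyp2a5 lay apart with GW4064 lower and those of Cyp2j5 apart with GW4064 higher, and the 3 intervals were 0.893 to 1.11, 0.776 to 1.07 and 0.987 to 1.22. Cyp2d22 was 12.9 and 13.4 RPKM with vehicle and 13.1 and 11.99 RPKM with GW4064, and Cyp2d40 6.88 and 6.44 RPKM against 6.18 and 5.20 RPKM, with intervals of 0.831 to 1.10 and 0.694 to 1.05, where the groups overlapped for Cyp2d22 and GW4064 was lower in both libraries for Cyp2d40.

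Among the remaining tested genes, Cyp2c38 was 5.87 and 5.22 RPKM with vehicle and 4.64 and 6.32 RPKM with GW4064, Cyp2c54 4.45 and 5.04 RPKM against 4.36 and 4.77 RPKM, and Cyp2c67 2.44 and 2.07 RPKM against 1.92 and 2.40 RPKM, all 3 overlapping. Cyp2c23, an epoxygenase gene that lies apart from the main Cyp2c cluster, was 3.82 and 4.35 RPKM against 3.82 and 3.67 RPKM. Cyp2r1, whose row carries a non-coding transcript identifier of the gene, was 1.15 and 1.41 RPKM with vehicle and 1.03 and 1.21 RPKM with GW4064, Cyp2j9 1.69 and 1.95 RPKM against 1.74 and 2.40 RPKM, and Cyp2j6 1.75 and 1.86 RPKM against 1.83 and 1.93 RPKM. The vehicle and GW4064 values overlapped for each of these 4 genes as well. The 23 untested genes reached at most 0.483 RPKM in an RNA-seq library (Cyp2d11). A limma-voom fit with no filter, chosen after the data were seen, gave none of the 23 an adjusted p under 0.05, and the smallest was 0.22 for Cyp2b13. At an unadjusted p under 0.05 it had Cyp2b13 and Cyp2j8 lower. Cyp2s1, an enzyme of tissues outside the liver, was 0.026 and 0.051 RPKM with vehicle and 0.031 and 0.092 RPKM with GW4064, and 7 genes were at 0 in at least 1 library, where 0 reads allow a level of up to 0.00506 to 0.0436 RPKM by gene and library.

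GRO-seq asked whether transcription of these genes responded to GW4064 and whether the response needed FXR. With 1 library per group it has no replicate check, so no test was made, and mouse, library, genotype and treatment cannot be told apart. Ratios of reads are given with exact 95% intervals that cover counting error only, and genes are counted as higher or lower at 1.5-fold or more on log2(RPKM + 0.1). Of 26 Cyp2 genes that averaged 0.5 RPKM or more across the GRO-seq libraries, 2 were higher in WT nuclei after GW4064 (7.69%, background 6.4% of 9690 genes) and 5 were lower (19.2%, background 7.17%). In FXR KO nuclei 8 of 25 were higher (32.0%, background 2.88% of 9191 genes) and 1 was lower (4.0%, background 3.44%). The median log2 ratio of the Cyp2 genes was -0.04 in WT, where all genes had -0.10, and 0.18 in FXR KO, where all genes had -0.03. At a 2-fold threshold 2 genes were higher (background 2.68%) and 2 lower (1.69%) in WT, and 3 higher (0.762%) and 0 lower (0.533%) in FXR KO. A larger part of the family therefore lay past 1.5-fold upwards without FXR than with it, which is a count over 1 library per group.

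The highest ratios in both genotypes were those of Cyp2c29 and Cyp2b10, known CAR targets, among the genes over the filter. Cyp2c29 had a GRO-seq level of 16.1 RPKM in WT vehicle, 39.9 in WT GW4064, 24.0 in FXR KO vehicle and 151 RPKM in FXR KO GW4064. Its GW4064 ratio was 2.48 (2.42 to 2.54) in WT and 6.27 (6.10 to 6.46) in FXR KO. Cyp2b10 had 1.06 and 2.24 RPKM in the WT pair and 3.59 and 24.8 RPKM in the FXR KO pair, ratios of 2.12 (1.87 to 2.39) and 6.92 (6.32 to 7.60). Both genes were higher after GW4064 in both genotypes, and the ratio in FXR KO was 2.53 times (2.44 to 2.63) and 3.27 times (2.81 to 3.80) that in WT. Among 9086 genes with rows of at least 300 bases, Cyp2b10 and Cyp2c29 ranked 2 and 3 from the top by FXR KO ratio. Cyp2c29 alone took 0.0702% and 0.174% of reads in the WT pair and 0.105% and 0.658% in the FXR KO pair. All Cyp2 genes together took 0.543% and 0.578% in WT and 0.776% and 1.37% in FXR KO, and without Cyp2c29 0.472% and 0.404% in WT and 0.671% and 0.717% in FXR KO.

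The other CAR targets had smaller ratios or lower levels. Cyp2c54 had 2.84 and 2.82 RPKM in the WT pair and 8.42 and 15.6 RPKM in the FXR KO pair, ratios of 0.991 (0.915 to 1.07) and 1.85 (1.74 to 1.97). Cyp2c50 had 8.03 and 10.1 RPKM in WT and 16.3 and 27.0 RPKM in FXR KO, ratios of 1.25 (1.06 to 1.48) and 1.66 (1.40 to 1.97). Cyp2c37 had 8.39 and 10.2 RPKM in WT and 9.52 and 13.7 RPKM in FXR KO, ratios of 1.22 (1.15 to 1.29) and 1.44 (1.32 to 1.56). Each ratio was higher in FXR KO than in WT, by 1.87 times (1.69 to 2.07) for Cyp2c54, 1.32 times (1.05 to 1.67) for Cyp2c50 and 1.18 times (1.06 to 1.30) for Cyp2c37, and these 3 genes share exon sequence with each other. Cyp2c55 was under the filter, with 25 and 29 reads in the WT pair and 5 and 127 reads in the FXR KO pair, levels of 0.049, 0.077, 0.027 and 0.702 RPKM and ratios of 1.55 (0.878 to 2.76) and 25.8 (10.8 to 80.7). Of the 5 targets over the filter, 2 were at least 1.5-fold higher in WT (background 6.4%) and 4 in FXR KO (background 2.88%). The list of targets was fixed with earlier results of these data known, so these counts are description only. In the whole family 8 of 25 genes were higher in FXR KO (32.0%), among them Cyp2c70, Cyp2r1, Cyp2j5 and Cyp2j9, which are not on the list. In RNA-seq, from WT livers only, 1 of the 5 targets rose (background 2.13%). Cyp2c55 read 0.113 and 0.086 RPKM with vehicle and 0.149 and 0.144 RPKM with GW4064.

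**Figure D3:**
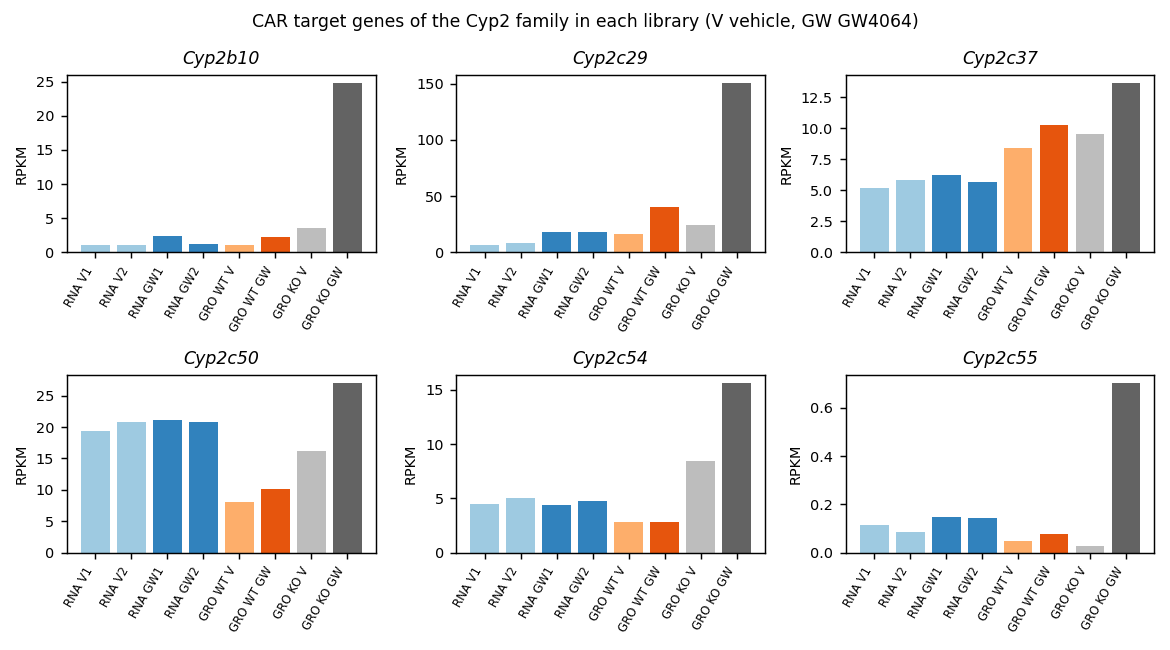
RPKM in each of the 8 libraries for 6 Cyp2 genes known as CAR targets, with bars for single libraries and a separate axis from 0 for each gene. The FXR KO GW4064 library has the highest value for every gene drawn, 151 RPKM for Cyp2c29 and 0.702 RPKM for Cyp2c55.

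Cyp2c68, Cyp2c67 and Cyp2e1 were at least 1.5-fold lower after GW4064 in WT nuclei, and their FXR KO ratios were nearer to 1. They were named for low WT ratios in single libraries, a choice that by itself favours a higher FXR KO ratio. Cyp2d40 was lower to a similar extent in both genotypes, with read ratios of 0.648 (0.445 to 0.931) in WT and 0.680 (0.474 to 0.969) in FXR KO. Cyp2c68 had 5.58 and 1.36 RPKM in the WT pair and 5.82 and 4.67 RPKM in the FXR KO pair, ratios of 0.244 (0.225 to 0.264) and 0.803 (0.744 to 0.865). Cyp2c67 had 4.06 and 1.44 RPKM in WT and 2.97 and 2.40 RPKM in FXR KO, ratios of 0.355 (0.325 to 0.389) and 0.809 (0.717 to 0.913). These neighbours share exon sequence, and their windows both hold CAAAGTCCA, which the Cyp2e1 window lacks. Cyp2e1 had 108 and 59.7 RPKM in WT and 145 and 142 RPKM in FXR KO, ratios of 0.554 (0.538 to 0.569) and 0.979 (0.950 to 1.01). The FXR KO ratio exceeded the WT ratio 3.29 times (2.95 to 3.66) for Cyp2c68, 2.28 times (1.96 to 2.64) for Cyp2c67 and 1.77 times (1.70 to 1.84) for Cyp2e1. The low WT ratios of Cyp2e1 and Cyp2c68 went with GW4064 values below vehicle in RNA-seq, whereas Cyp2c67 overlapped there. In GRO-seq the summed periportal markers were 148 and 308 RPKM in the WT pair and 221 and 185 RPKM in the FXR KO pair, and the pericentral markers 41.8 and 50.8 RPKM and 51.5 and 44.3 RPKM, and their part in the Cyp2e1 ratio was not tested.

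Cyp2c70 and Cyp2r1 were lower after GW4064 with FXR and higher without it. Cyp2c70 had 3.54 and 1.83 RPKM in the WT pair and 1.54 and 3.40 RPKM in the FXR KO pair, ratios of 0.517 (0.472 to 0.566) and 2.20 (1.90 to 2.55). Cyp2r1 had 1.25 and 0.730 RPKM in WT and 0.501 and 1.03 RPKM in FXR KO, ratios of 0.584 (0.456 to 0.742) and 2.06 (1.34 to 3.23). In both genes the FXR KO vehicle library was the lowest of the 4 and the WT vehicle library the highest. The RNA-seq of WT livers had Cyp2c70 above vehicle in both GW4064 libraries, the opposite direction to its WT GRO-seq ratio, and neither gene passed the RNA-seq test. Cyp2c38 went the other way, with 11.4 and 14.7 RPKM in WT and 28.2 and 18.0 RPKM in FXR KO. Its ratios were 1.29 (1.26 to 1.32) and 0.637 (0.618 to 0.657). On log2(RPKM + 0.1) it was the gene counted with a WT ratio over 1.5-fold above the FXR KO ratio. Cyp2u1 fell short on that scale, with a difference of 0.55, but passed 1.5-fold by reads, with a log2 difference of 0.59 (0.03 to 1.16).

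**Figure D4:**
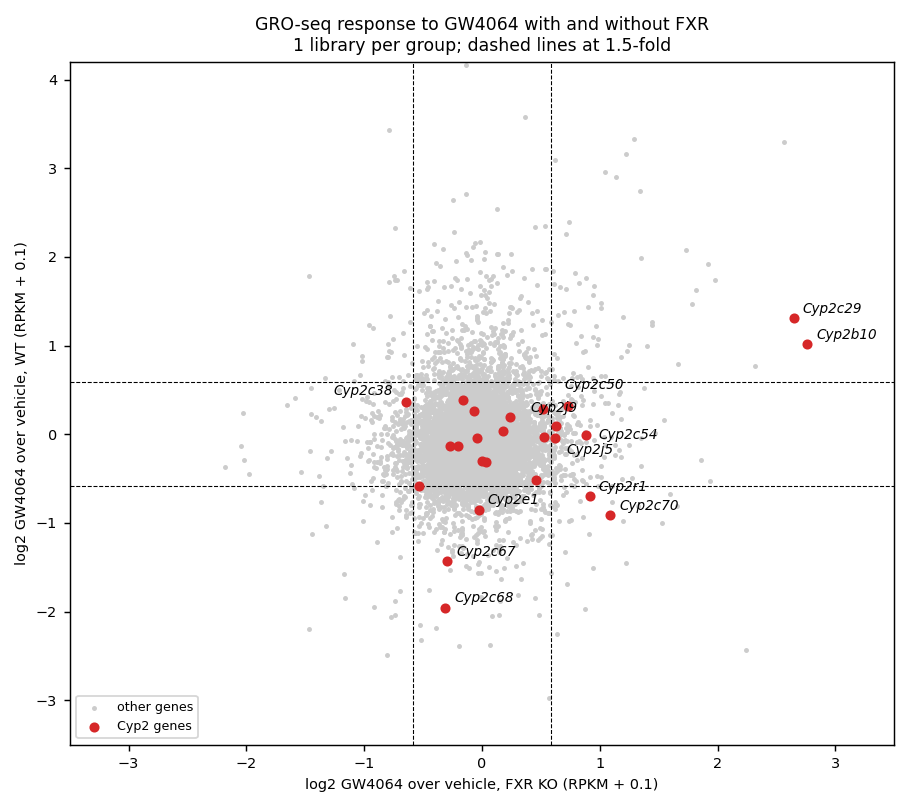
GRO-seq log2 ratio of GW4064 over vehicle in FXR KO (x axis) against WT (y axis), for 25 Cyp2 genes in red and the other genes of 9191 in grey, with 1 library per group, dashed lines at 1.5-fold and 5 genes outside the axes. Cyp2b10 and Cyp2c29 lie at the right edge of the cloud, Cyp2c67 and Cyp2c68 at its lower edge, and Cyp2c70 and Cyp2r1 in the lower right field.

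Over the family, the GW4064 ratio was at least 1.5-fold lower in WT than in FXR KO for 10 of 25 genes (40.0%, background 9.61%) and higher for 1 (4.0%, background 9.08%); at 2-fold the numbers were 6 (background 2.8%) and 1 (3.34%). The 10 were Cyp2c70, Cyp2b10, Cyp2c68, Cyp2r1, Cyp2c29, Cyp2c67, Cyp2a22, Cyp2c54, Cyp2e1 and Cyp2j5. Of these, Cyp2b10, Cyp2c29, Cyp2c54 and Cyp2j5 were past 1.5-fold upwards in FXR KO, Cyp2c67, Cyp2c68 and Cyp2e1 past it downwards in WT, Cyp2c70 and Cyp2r1 both, and Cyp2a22 neither on the log2(RPKM + 0.1) scale of these counts. The median difference was -0.40 on the log2 scale, against -0.06 over all genes. Cyp2a22, at 0.773 and 0.511 RPKM in WT and 0.752 and 1.07 RPKM in FXR KO, had ratios of 0.661 (0.446 to 0.968) and 1.42 (0.868 to 2.35). Cyp2j5 had 14.1 and 13.7 RPKM in WT and 9.45 and 14.6 RPKM in FXR KO, and Cyp2j9 3.09 and 3.30 RPKM in WT and 1.60 and 2.53 RPKM in FXR KO. Their ratios were 0.972 (0.938 to 1.01) and 1.07 (0.971 to 1.17) in WT and 1.55 (1.46 to 1.64) and 1.58 (1.31 to 1.91) in FXR KO, where the vehicle library was the lowest of the 4 for both genes. The difference between genotypes uses all 4 libraries, so it shares its libraries with the ratios in each genotype and does not add to them.

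Genes with little GW4064 response in either genotype included the abundant Cyp2d genes. Cyp2d9 had 48.4 and 57.9 RPKM in WT and 88.5 and 84.3 RPKM in FXR KO, Cyp2d26 36.4 and 33.2 RPKM and 57.0 and 49.5 RPKM, and Cyp2d10 25.8 and 24.99 RPKM and 40.8 and 39.5 RPKM. Their ratios were 1.20, 0.913 and 0.970 in WT and 0.952, 0.868 and 0.968 in FXR KO. Cyp2d22 had 10.5 and 10.8 RPKM in WT and 12.8 and 14.5 RPKM in FXR KO, Cyp2a12 10.9 and 8.79 RPKM and 10.4 and 10.7 RPKM, and Cyp2f2 16.2 and 13.1 RPKM and 14.8 and 14.8 RPKM. None of these 6 reached 1.5-fold in either genotype. Cyp2d40 had 1.56 and 1.01 RPKM in WT and 3.72 and 2.53 RPKM in FXR KO, and came near 1.5-fold in both on log2(RPKM + 0.1). Its read ratios were 0.648 (0.445 to 0.931) in WT, past 1.5-fold, and 0.680 (0.474 to 0.969) in FXR KO. Cyp2a5 had 11.6 and 11.3 RPKM in WT and 15.8 and 22.8 RPKM in FXR KO. It was higher after GW4064 in FXR KO, though under 1.5-fold, with a ratio of 1.44 (1.3 to 1.6), as high as that of Cyp2c37. The Cyp2a5 ratio in FXR KO was 1.48 times (1.3 to 1.69) that in WT. Cyp2u1 had 1.21 and 1.61 RPKM in WT and 1.05 and 0.929 RPKM in FXR KO, and Cyp2c23 2.35 and 2.14 RPKM and 1.87 and 1.53 RPKM. Cyp2j6 had 1.24 and 1.43 RPKM in WT and 0.907 and 1.09 RPKM in FXR KO, and Cyp2t4 0.611 and 0.779 RPKM and 0.722 and 0.569 RPKM.

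Along chromosome 19 the ratios differed between neighbouring genes. Cyp2c29 lay between Cyp2c66, with ratios of 1.00 (0.586 to 1.70) in WT and 0.697 (0.293 to 1.60) in FXR KO, and Cyp2c38, whose FXR KO ratio was below 1. The pseudogene Cyp2c53-ps, between Cyp2c66 and Cyp2c29, ended 12348 bases before Cyp2c29 and had ratios of 1.08 (0.759 to 1.55) in WT and 29.9 (21.4 to 42.9) in FXR KO, so it was higher together with Cyp2c29 in FXR KO. Cyp2c70, Cyp2c50 and Cyp2c54 had FXR KO ratios over 1.5, whereas Cyp2c67, Cyp2c68 and Cyp2c40, with 0.811 (0.393 to 1.65), had FXR KO ratios below 1. Cyp2c39, a retinoic acid hydroxylase, was under the filter with ratios of 1.47 (1.16 to 1.87) in WT and 0.943 (0.717 to 1.24) in FXR KO.

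**Figure D5:**
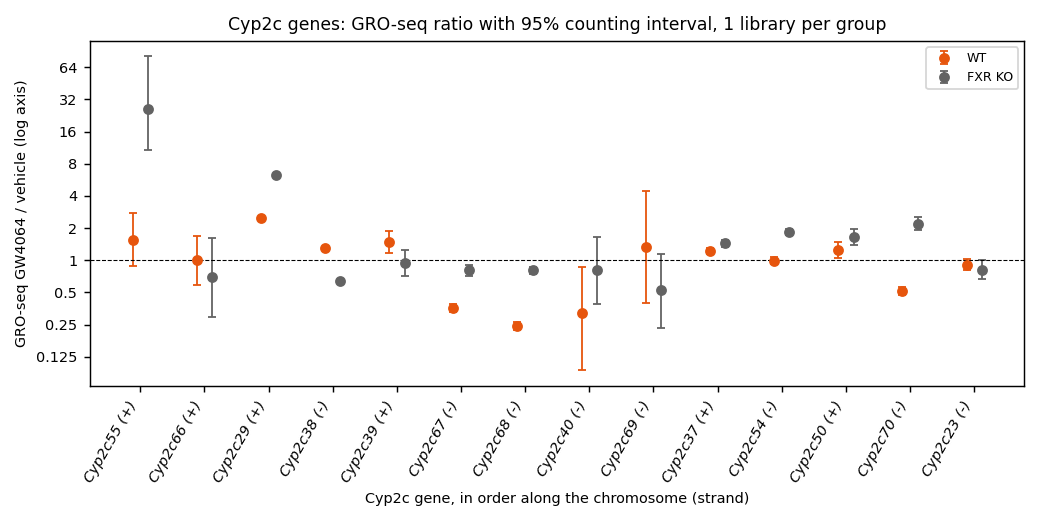
GRO-seq read ratio of GW4064 over vehicle on a log axis for the 14 Cyp2c genes with at least 5 reads in each GRO-seq library, in their order along chromosome 19 with the strand in brackets; lines are 95% counting intervals and each group is 1 library. Cyp2c55 and Cyp2c29 have the highest FXR KO ratios and Cyp2c68 the lowest WT ratio, and intervals are wide where reads are few.

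The vehicle-treated WT and FXR KO libraries, 1 for each genotype, also differed in Cyp2 GRO-seq levels. Genotype, mouse and library cannot be told apart in this comparison. The GRO-seq level was at least 1.5-fold higher in FXR KO than in WT for 8 of 26 genes (30.8%, background 6.14% of 9656 genes) and lower for 3 (11.5%, background 6.08%), and at 2-fold for 5 (1.68%) and 2 (1.36%). The highest ratios of FXR KO over WT were those of Cyp2b10 (3.38, 2.98 to 3.85), Cyp2c54 (2.96, 2.76 to 3.18) and Cyp2c38 (2.47, 2.41 to 2.54), followed by Cyp2d40, Cyp2c50, Cyp2d9, Cyp2d10 and Cyp2d26 at 2.38, 2.03, 1.83, 1.58 and 1.57. The lower genes were Cyp2r1 (0.401, 0.269 to 0.579), Cyp2c70 (0.436, 0.382 to 0.496) and Cyp2j9 (0.519, 0.442 to 0.606). The 3 hepatocyte markers summed to 369 RPKM in the WT vehicle library and 681 RPKM in the FXR KO vehicle library, but they differed. Their FXR KO over WT vehicle ratios were 1.66 for Alb and 2.43 for Apoa1 but 1.03 (0.984 to 1.07) for Ttr. The part of these markers in the Cyp2 ratios was not tested. The vehicle libraries also stand in the GW4064 ratios of their genotype, so a low FXR KO vehicle value by itself raises the FXR KO ratio. Among genes at least 1.5-fold higher in FXR KO after GW4064, FXR KO vehicle was below WT vehicle for Cyp2c70, Cyp2r1, Cyp2j9 and Cyp2j5. It was above WT vehicle for Cyp2b10, Cyp2c54, Cyp2c50 and Cyp2c29, by 3.38, 2.96, 2.03 and 1.49 times. The part of the vehicle level in the FXR KO ratios was not tested.

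RNA-seq and WT GRO-seq, which share no library, gave the same sign of change for 19 of 25 genes (76.0%), beside 69.4% of the 9992 genes over both filters, a description across genes that are not independent replicates. Cyp2c29 and Cyp2b10 lay past 1.5-fold upwards in both and Cyp2c68 downwards, and the share of all genes doing so was not counted. Of these, Cyp2c29 passed the RNA-seq test. The RNA-seq change of Cyp2b10 rested on GW4064 library 1, at 2.44 RPKM against 1.22 RPKM in library 2, and its interval was 0.811 to 3.11. In bulk liver, fewer cells of a type and less RNA per cell cannot be told apart.

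Genes that serve or control the Cyp2 enzymes were read from lists fixed with earlier results of these data known. Of 8 genes for electron transfer, haem supply and later steps, 1 rose in RNA-seq and none fell, beside 2.13% and 1.15% of all tested genes. Por, the reductase that feeds every microsomal P450, rose by 0.55 on the log2 scale (SE 0.05, limma adjusted p = 0.031), and Alas1, which starts haem synthesis, had a change of 1.02 (SE 0.14) that missed the threshold (limma adjusted p = 0.054). In GRO-seq Por had ratios of 1.83 in WT and 1.30 in FXR KO, and Alas1 1.58 in WT and 2.01 in FXR KO. Of 22 regulators, 1 rose, Nr0b2, and 6 fell, namely Nr1h4, Hlf, Rxra, Ahr, Bcl6 and Ppara, beside the same 2.13% and 1.15% of all tested genes. Nr0b2 is also on the list of FXR-induced controls. In WT GRO-seq Bcl6 had a ratio of 1.09 (0.997 to 1.19), whereas the other genes that fell had ratios of 0.281 (Nr1h4) to 0.681 (Rxra). Nr0b2 encodes a repressor partner of nuclear receptors and changed by 2.54 (limma adjusted p = 0.037), Nr1h4 changed by -1.26 (limma adjusted p = 0.015) and Rxra, the shared partner of FXR, CAR and PXR, by -0.49 (limma adjusted p = 0.036). Nr1i3, which encodes CAR, changed by -0.25 (limma adjusted p = 0.16) and Nr1i2, which encodes PXR, by 1.00 (limma adjusted p = 0.091). Their GRO-seq ratios were 0.841 and 3.23 in WT and 1.19 and 1.96 in FXR KO.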

How the data were processed

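The authors mapped RNA-seq and GRO-seq reads to mm10 with STAR 2.7.3a and deposited RPKM values from HOMER in a table of 25124 gene rows (versions from the submitters' processing notes, which list bcl2fastq and FastQC too). The strand setting of the counting, and the handling of reads that map to several genes, are not given in the sources used here. RPKM multiplied by row length and a rebuilt library total gave whole reads within 0.15 for 99.98% to 100% of the values tested. RNA-seq values were analysed as log2(RPKM + 0.1), without further scaling, for genes averaging 0.5 RPKM or more, in limma 3.58.1 (R 4.3.3, eBayes trend=TRUE) with treatment as the only term, over 11408 genes, with Benjamini-Hochberg adjustment and a threshold of 0.05. The table does not give counts, so limma-voom on rebuilt reads was an alternative. The p-values rest on the spread between 2 libraries per treatment, moderated by eBayes toward a trend over all tested genes. Each library pooled 2 mice, so the spread between single mice was not measured.

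GRO-seq ratios were read directly, without a test, for genes averaging 0.5 RPKM or more with 20 reads or more in either library compared, with exact conditional binomial 95% intervals from rebuilt reads (scipy 1.17.1); intervals of a difference between ratios use Poisson errors of the 4 counts on the log scale. Reads without molecular identifiers are not independent molecules, so intervals and limits cover counting error only, and the limit for 0 reads is 3 reads. The limma step was run on simulated data with known changes, drawn with a common spread for all genes. That run checked the step and does not bear on single calls such as that of Cyp2c29.

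The Cyp2 genes, the gene lists and the alternatives were chosen with earlier results of these data known. Values in every library are given for genes past the test, the 12 highest in vehicle RNA-seq, the 6 extremes of each GRO-seq ratio and of each difference, and Cyp2e1, Cyp2r1, Cyp2b10, Cyp2f2, Cyp2u1, Cyp2s1 and Cyp2j5 by function. Other Cyp2 genes with values were added to complete the genes over the filters and the list of CAR targets. Alternatives were other added values and filters, quantile normalization, median centring, eBayes settings, a replicate block, rows of at least 300 bases, a 2-fold threshold and leaving out each library. The list of 4 genes known to be more abundant in female liver (Cyp2a4, Cyp2b9, Cyp2b13, Cyp2c69) had no gene over a filter. Tf, a hepatocyte marker, was not analysed here. Promoter windows came from RefSeq on GRCm38.p6, and shared 80-base stretches from GENCODE M21 transcripts of all 48 genes.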

Additional observations from a re-analysis of the deposited data

Results flagged for a closer look

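Among the Cyp2 genes over the GRO-seq filter, 3 had GW4064 ratios on opposite sides of 1 with and without FXR, counting those whose 95% counting intervals left out 1 in both genotypes and whose ratio was past 1.5-fold in at least 1. There was 1 library per group, so the difference between genotypes was not tested. Cyp2c70 differed by -2.01 (WT minus FXR KO, log2 scale), from ratios of 0.517 in WT and 2.20 in FXR KO. Cyp2r1 differed by -1.62, from ratios of 0.584 and 2.06. Cyp2c38 differed by 1.01, from ratios of 1.29 and 0.637.

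Cyp2c53-ps, a pseudogene outside the 48 protein-coding genes, had a GRO-seq level of 4.597 RPKM in FXR KO after GW4064, against 0.154 RPKM in FXR KO vehicle and 0.115 and 0.125 RPKM in the WT pair. Its reads were 36 and 1060 in the FXR KO pair, a ratio of 29.9 (21.4 to 42.9), and 74 and 60 in the WT pair, a ratio of 1.08 (0.759 to 1.55). It lies on the plus strand of chromosome 19 and ends 12348 bases before the start of Cyp2c29 on the same strand, and whether its reads belong to a separate transcript was not tested. In RNA-seq of WT livers it was at 0.057 and 0.158 RPKM with vehicle and 0.193 and 0.137 RPKM with GW4064.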

How the results depend on the processing

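The number of Cyp2 genes called higher in RNA-seq, 1 as reported, was 0 with a filter at 0.1 RPKM, with no filter, with eBayes trend=FALSE, with limma-voom and no filter (added after seeing the data), and in all 4 fits that left out a library (range 0 to 0), and 2 with rows of at least 300 bases and with limma-voom. The number lower, 0 as reported, was 1 with a filter at 1 RPKM and with quantile normalization (Cyp2e1), and 2 with rows of at least 300 bases and with limma-voom (Cyp2e1 and Cyp2c68). With the replicate number as a block it was 0 higher and 0 lower, Cyp2c29 then having a limma adjusted p of 0.088, and 0 of 11408 genes were called in all (2327 at an unadjusted p under 0.05); the deviations of same-numbered libraries correlated at -0.022, so the numbers are not shown to pair the samples. Leaving out a library took the calls over all genes from 374 to 43 without vehicle library 1 and to 0 without any other.

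Over single Cyp2 genes and all alternatives, 373 RNA-seq values kept their direction and side of the threshold, 8 crossed it upwards (Cyp2e1, Cyp2c68 and Cyp2u1), 8 downwards (Cyp2c29) and 10 turned sign. Changes that turned sign were small and not past the test. They were Cyp2c50 with quantile normalization (-0.07) and, over the 4 fits that left out a library, Cyp2a12 (-0.03 to 0.02), Cyp2a22 (-0.05 to 0.26), Cyp2c67 (-0.22 to 0.09), Cyp2c38 (-0.25 to 0.19), Cyp2c54 (-0.14 to 0.03) and Cyp2j9 (-0.06 to 0.38).

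In GRO-seq, genes higher in FXR KO after GW4064 numbered 5 instead of 8 with 1 RPKM added. Those with a ratio higher in WT than in FXR KO numbered 2 instead of 1 with 0.01 RPKM added, with median centring and with no minimum of reads. Those lower in FXR KO than in WT vehicle numbered 5 instead of 3 with a filter at 0.1 RPKM and with none. A 2-fold threshold left 2 lower in WT, 3 higher and 0 lower in FXR KO, 6 with a lower ratio in WT and 5 higher in FXR KO vehicle. The cause of these shifts was not tested beyond the fewer or more genes that each filter or threshold admits. Depth limited the FXR KO pair most, and genes under 20 reads in every library were not readable.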

Other observations

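Cyp2b9, a gene more abundant in female liver, lay just under the GRO-seq filter and was singled out after its values were seen. It had 412 and 15 reads in the WT vehicle and GW4064 libraries and 40 and 183 reads in the FXR KO pair, levels of 0.780, 0.038, 0.209 and 0.969 RPKM. Its ratio was 0.0487 (0.027 to 0.0813) in WT and 4.64 (3.28 to 6.71) in FXR KO, so the WT vehicle and FXR KO GW4064 libraries were high and the others low. RNA-seq read at most 0.085 RPKM for it. The other genes of that list stayed at or under 0.250 RPKM in GRO-seq.

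Cyp2d13 and Cyp2d37-ps, pseudogenes of the Cyp2d cluster on chromosome 15, had levels in the range of the coding Cyp2d genes. Cyp2d37-ps was at 32.2 and 36.1 RPKM with vehicle and 29.4 and 24.8 RPKM with GW4064 in RNA-seq, and Cyp2d13 at 19.2 and 22.7 RPKM with vehicle and 17.6 and 18.1 RPKM with GW4064. As for 28.1% of all tested genes, both GW4064 values were below both vehicle values for each pseudogene. Their GRO-seq ratios were 0.611 (0.542 to 0.689) and 0.765 (0.708 to 0.826) in WT and 0.804 (0.706 to 0.915) and 1.26 (1.14 to 1.40) in FXR KO. Sequence shared with coding Cyp2d genes was not measured for them.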
